A study of Mus musculus with 2 samples.

Results

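The neutrophils described here were those with the highest expression of Cxcr2, Hdc, G0s2, Csf3r, Il1r2 and Steap4 among the tumor neutrophils of the 4T1 breast carcinoma model. They were selected on a score, the percentage of the UMIs (unique molecular identifiers, each standing for 1 captured transcript) of a cell that fell in those 6 genes. Of 7951 deposited barcodes, 5187 passed the limits of 500 to 5000 genes and at most 10% mitochondrial UMIs. Of these, 1727 were gated as neutrophils that were neither granule-rich nor high in Il1a, Tnf and Il23a nor in interferon-stimulated genes. The 345 cells in the highest 20% by score, both libraries pooled, are called the score-high neutrophils below, and the other 1382 gated cells are called the remaining 80%.

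Cxcr2 is the receptor through which neutrophils follow chemokines such as Cxcl1 and Cxcl2, and Csf3r is the receptor for G-CSF, the cytokine that drives neutrophil production and survival. Hdc is the enzyme that makes histamine, G0s2 inhibits the lipase that opens lipid droplets, Il1r2 is a decoy receptor that binds interleukin-1 without signaling, and Steap4 is a metalloreductase. Neutrophils in tumors span a range from cells that resemble those in blood to cells with hypoxia, glycolysis and cytokine programs.

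GR1+ cells had been isolated by magnetic positive selection from tumors of BALB/c mice, labelled as 6 to 8 weeks old although the study's methods give another age, and profiled by 10x single-cell RNA sequencing before any treatment. The 4T1P library came from tumors of the parental 4T1 line, which does not respond to anti-PD1, and the 4T1M library from tumors of a derivative that was mutagenized with the carcinogen MNNG and does respond, which the study calls a clone although its mutagenesis is described as multiclonal. Mice were pooled within each condition, 5 per sample by the series description, although the study also states another number. The 6 score genes lie apart in the genome (mm10, GENCODE annotation), on chromosomes 1, 2, 4 and 5, with Cxcr2 at chr1:74153989-74161246, Hdc at chr2:126593667-126619299 and G0s2 at chr1:193272161-193273217. With 1 pooled library per condition, the condition, the tumor line and the library cannot be told apart, no test between conditions was possible, and every interval below is an exact 95% interval that covers counting error only. The libraries held 21855657 (4T1P) and 24303957 (4T1M) UMIs in all barcodes, and the score-high neutrophils 460544 and 634348. The libraries shared 5 barcode sequences, of which 0 were among the gated neutrophils.

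The score-high neutrophils carried the markers of neutrophils, some of which the gate and the score had used. All 15 had UMIs in them in both libraries, and together they took 160910 CPM (counts scaled to the same total in every sum) in 4T1P and 139673 CPM in 4T1M, against 159079 and 141294 CPM in the remaining 80%. Their most abundant marker was S100a9, a calcium-binding alarmin, at 83393 and 70346 CPM. Basophils and mast cells also express Hdc, and 11 of 12 of their markers, among them Mcpt8, Cpa3, Ms4a2 and Fcer1a, had no UMI in the score-high neutrophils of either library. The exception was Kit, at 6.51 CPM in 4T1P and 11.04 CPM in 4T1M.

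Other cell types left traces that were mostly lower than in the remaining 80%. The 14 macrophage markers summed to 552 and 608 CPM in the score-high neutrophils of 4T1P and 4T1M, against 829 and 896 CPM. Apoe was the most abundant of them, at 161 and 221 CPM. The median cell went the other way, with 0.0243% and 0.0252% of UMIs in C1qa, C1qb, C1qc and Apoe, against 0.0183% and 0.0220%. The 8 monocyte markers summed to 73.8 and 59.9 CPM, against 177 and 271 CPM. Epithelial or tumor markers stood at 8.69 CPM in 4T1P and 20.5 CPM in 4T1M, against 125 and 16.7 CPM, so that their trace in the remaining 80% was mainly in 4T1P. The 8 eosinophil markers were slightly higher, at 15.2 and 23.6 CPM against 11.1 and 12.9955 CPM, mostly from Siglecf.

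The cells were taken as a range of the score, with no gap at the cut, and whether they form a type of their own was not tested. The score ran from 1.38% to 4.06% in the score-high neutrophils, with a median of 1.88% in 4T1P and 1.78% in 4T1M, and the median was 0.632% and 0.622% in the remaining 80%. The last cells taken had scores of 1.37573%, 1.37801% and 1.37803%, and the first cells left out had 1.3745%, 1.37174% and 1.37157%. Within 10% of the cut lay 60 of the 345 selected cells and 78 of the 1382 others.

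The score-high neutrophils made up 26.5% of the gated neutrophils in 4T1P (137 of 517, exact binomial 95% interval 22.7 to 30.5%) and 17.2% in 4T1M (208 of 1210, 15.1 to 19.4%). These intervals cover the counting of cells in 1 library each, and the difference between conditions was not tested. When G0s2 was left out of the score the shares were 22.2% and 19.0%. Among all neutrophils before the granule, cytokine and interferon gates, 23.9% in 4T1P and 17.1% in 4T1M had a score at or above the cut.

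**Figure D1:**
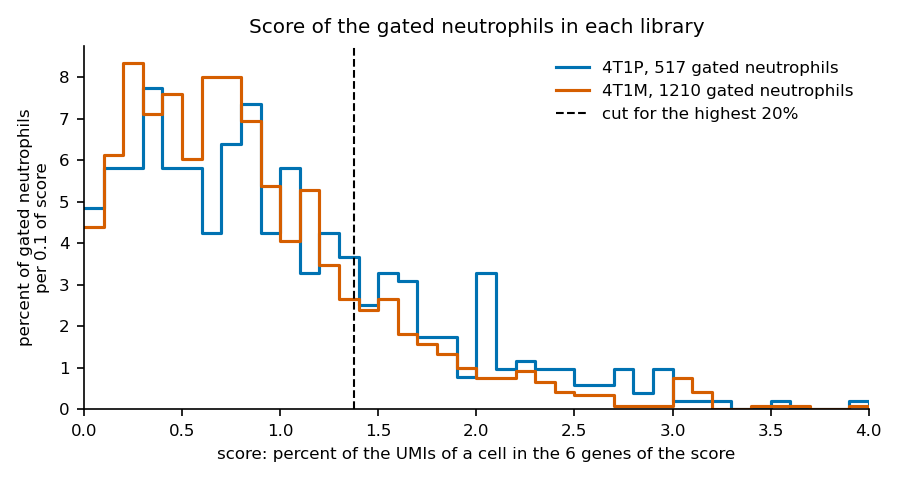
Distribution of the score, the percentage of the UMIs of a cell in the 6 genes (x axis), as the percentage of gated neutrophils of each library per 0.1 of score (y axis; scores of 4 and above are in the last step). The dashed line is the cut for the highest 20% of both libraries pooled. Cells lie on both sides of the cut with no gap in either library, the upper ends are uneven, and 26.5% of the 4T1P cells and 17.2% of the 4T1M cells lie above it.

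Depth was similar on both sides of the cut. The median was 3129 UMIs per cell in the score-high neutrophils of 4T1P and 2718 in those of 4T1M, against 2876 and 2950 in the remaining 80%. At an equal 1000 UMIs per cell the median number of genes was 440 and 442.5, against 445.5 and 453. The median mitochondrial share was 2.59% and 1.75%, against 2.89% and 1.86%.

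The 6 genes contributed unequally to the selection. G0s2 supplied 70.9% of the score UMIs in the score-high neutrophils of 4T1P and 69.9% in 4T1M, Hdc 12.1% and 10.96%, and Steap4 only 1.69% and 1.37%. The levels of these genes chose the cells and are given as a description. G0s2 stood at 14003 CPM (13663 to 14349) in the score-high neutrophils of 4T1P against 3403 CPM in the remaining 80%, and at 13470.5 CPM (13186 to 13759) against 3098 CPM in 4T1M. Per cell, the median share of UMIs in G0s2 was 1.252% in 4T1P, from 0.201% in the lowest cell to 2.98% in the highest, and 1.254% in 4T1M, from 0.0935% to 3.53%. Some cells therefore entered on the other genes.

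Hdc stood at 2382 CPM against 1142 CPM in 4T1P and at 2112 CPM against 1154 CPM in 4T1M. Cxcr2 stood at 591 against 266 CPM in 4T1P and at 705 against 359 CPM in 4T1M. The log2 ratios were 1.06 and 0.87 for Hdc and 1.15 and 0.97 for Cxcr2. Csf3r was at 1157 against 700 CPM in 4T1P and 1307 against 890 CPM in 4T1M. Il1r2 was at 1277 against 848 CPM and 1422 against 807 CPM. Steap4 was the lowest of the 6 at 334 against 195 CPM and 263 against 181 CPM.

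At 1000 UMIs per cell, Cxcr2 was detected in 41.6% of the score-high neutrophils of 4T1P and 45.2% of those of 4T1M, against 18.9% and 26.3% of the remaining 80%. Without thinning these shares were 70.8% and 70.2%, against 42.1% and 51.8%. Barcodes rich in C1q or Apoe, which stand for macrophages, had a Cxcr2 UMI in 0.324% and 0.822% at 1000 UMIs, so the shares in neutrophils lay well above that background. The median depth of those barcodes was 9305 and 9440 UMIs before thinning. At least 4 of the 6 genes were detected at 1000 UMIs in 58.4% and 62.0% of the score-high neutrophils, against 26.1% and 28.9% of the remaining 80%. The cells were selected on these 6 genes, so the differences in detection from the remaining 80% follow from the selection and are a description.

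Each of the 6 genes was also higher in the cells ranked highest by the other 5. For Cxcr2, which this ranking did not use, the log2 ratio of the highest 20% to the rest was 1.05 in 4T1P (0.82 to 1.28) and 0.84 in 4T1M (0.68 to 1.002). For Hdc it was 0.70 and 0.58, for Csf3r 0.49 and 0.42, for Il1r2 0.38 and 0.51, and for Steap4 0.49 and 0.49. G0s2 showed the greatest loss, from 2.04 to 0.41 in 4T1P and from 2.12 to 0.61 in 4T1M, and only 45.2% of the score-high neutrophils stayed in the highest 20% without it. Leaving out any other gene kept 91.0 to 98.3% of them.

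Next, the 4 marker genes that the score does not contain were examined. They were named as markers with earlier results of these data known, so they are not an independent check. Lrg1, a secreted glycoprotein stored in neutrophil granules, was at 908 CPM in the score-high neutrophils of 4T1P against 615 CPM, and at 861 CPM against 577 CPM in 4T1M. Its log2 ratio was 0.56 (0.39 to 0.73) and 0.58 (0.44 to 0.71), and at 1000 UMIs per cell it was detected in 48.9% and 43.75% of the score-high neutrophils against 27.9% and 29.8% of the others (73.7% and 60.6% against 46.8% and 47.7% without thinning). Igfbp6, which binds insulin-like growth factors, was at 376 against 266 CPM in 4T1P and 318 against 230 CPM in 4T1M.

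Csf1, the growth factor of macrophages, was at 541 against 457 CPM and 717 against 560 CPM. The long noncoding RNA Mirt1 was at 430 against 336 CPM and 443 against 343 CPM. All 4 were higher in both libraries, and none reached 1.5-fold in both. At 1000 UMIs per cell Csf1 was detected in 29.9% of the score-high neutrophils of 4T1P against 29.5% of the remaining 80%, and in 41.3% against 35.4% in 4T1M. Without thinning these shares were 49.6% against 51.3% and 59.6% against 60.2%. Igfbp6 was detected at 1000 UMIs in 27.7% against 29.2% in 4T1P and 25.5% against 20.6% in 4T1M.

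Across the transcriptome, 3116 genes had at least 50 UMIs in the gated neutrophils of each library. At least 1.5-fold higher in the score-high neutrophils in both libraries were 32 genes, or 1.03% of those tested, and at least 1.5-fold lower were 240 genes, or 7.7%. The counting intervals were clear of 0 in both libraries for 24 of the 32 and 168 of the 240. Of the 32, the score contains 4 (G0s2, Hdc, Cxcr2 and Il1r2), and the other 28 did not enter the selection. The median log2 ratio of all 3116 genes was -0.04 in 4T1P and -0.08 in 4T1M. Scaling by DESeq2 size factors moved these medians to 0.08 and 0.07 and the calls to 101 higher and 157 lower, and TMM scaling gave 79 higher and 174 lower, so that the balance of higher to lower depends on the scaling.

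Il1b was the most abundant of the 28 genes. Il1b, the cytokine interleukin-1 beta, was at 17644 CPM (17263 to 18032) in the score-high neutrophils of 4T1P against 8257 CPM (8110 to 8407), and at 15460 CPM (15156 to 15769) against 9156 CPM (9059 to 9253) in 4T1M. Its log2 ratio was 1.10 and 0.76. Per cell, Il1b took a median of 1.64% of UMIs against 0.616% in 4T1P, and 1.35% against 0.697% in 4T1M, so the difference did not rest on a few cells. It was called in all 15 settings run, counting the one reported here, with a log2 ratio of 0.91 to 1.21 in 4T1P and 0.62 to 0.90 in 4T1M.

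Osm, a cytokine of the interleukin-6 family, was at 458 CPM (398 to 524) against 245 CPM in 4T1P and at 475 CPM (422 to 531) against 246 CPM in 4T1M. The log2 ratios were 0.90 and 0.95, and 14 of the 15 settings called it. At 1000 UMIs per cell, Osm was detected in 31.4% and 31.25% of the score-high neutrophils, against 18.7% and 18.1% of the others (56.9% and 50% against 40.8% and 38.8% without thinning). It is not particular to neutrophils, since the C1q or Apoe barcodes had an Osm UMI in 22.2% and 21.6% at 1000 UMIs and in 57.5% and 57.6% without thinning. The receptor gene Il10ra, through which interleukin-10 acts, was at 109 against 53.2 CPM in 4T1P and 126 against 80.1 CPM in 4T1M.

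Fgl2, a fibrinogen-like protein with secreted and membrane-bound forms, was at 265 against 142 CPM and 254 against 141 CPM. Adgre5, the adhesion receptor CD97, was at 200 against 115 CPM and 219 against 140 CPM. The signaling genes Themis2 and Ptpn6, the latter encoding the phosphatase SHP-1, had log2 ratios of 0.89 and 0.70 in 4T1P and of 0.60 each in 4T1M. Themis2 was called in 14 of 15 settings, Adgre5 and Ptpn6 in 12, and Fgl2 and Il10ra in 11. Others among the 15 highest were Gm5150, Dusp5, Cdk2ap2, Xbp1, Snx20, St3gal6 and Lrg1, each with a log2 ratio of 0.56 to 0.79 in both libraries, of which Snx20, St3gal6 and Lrg1 did not reach 1.5-fold in both. Gm5150 was called in 12 of the 15 settings, Cdk2ap2 in 8, Dusp5 in 5 and Xbp1 in 4, and the log2 ratio of Xbp1 in 4T1P ranged from -0.21 to 0.82 over the settings.

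**Figure D2:**
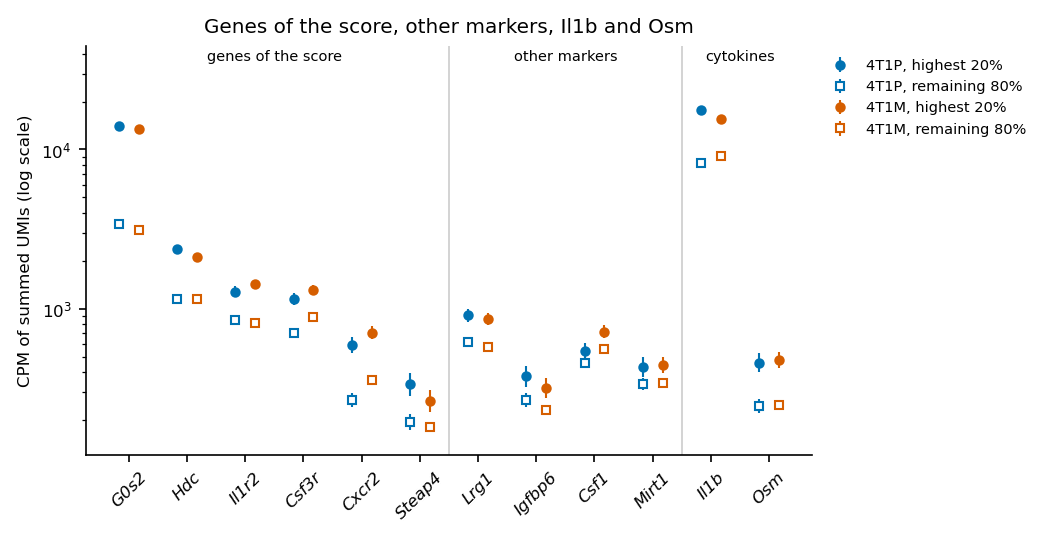
CPM of summed UMIs on a log scale (y axis) for the 6 genes of the score, the 4 other markers, Il1b and Osm (x axis), in the score-high neutrophils (filled circles) and the remaining 80% (open squares) of each library, with exact Poisson 95% intervals. Every gene is higher in the score-high neutrophils of both libraries, from Csf1 with log2 ratios of 0.24 and 0.36 to G0s2 with 2.04 and 2.12.

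Of 15 chemotaxis and adhesion receptors tested besides the score gene Cxcr2, 13 had ratios above 0 in both libraries and none was below 0 in both, with medians of 0.44 and 0.40. Of all 3116 genes, 882 were above 0 in both. None of the 15 was past 1.5-fold in both libraries. With Cxcr2 counted, 1 of 16 was called, against 4 under TMM scaling, 5 under DESeq2 scaling, 5 without G0s2 in the score and 4 with every cell weighted equally. The shares of all genes called higher were 1.03%, 2.54%, 3.24%, 6.13% and 1.44% in these settings, in the same order. The formyl peptide receptor Fpr1 was at 265 against 183 CPM in 4T1P and 284 against 191 CPM in 4T1M. The chemokine receptor Ccr1 was at 1222 against 967 CPM and 1427 against 984 CPM.

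Selplg, which encodes a selectin ligand, was at 337 against 214 CPM in 4T1P and 328 against 235 CPM in 4T1M. Cxcr4, the receptor that retains neutrophils in bone marrow, was higher as well, at 130 against 93.3 CPM and 147 against 98.7 CPM. With G0s2 alone as the score its log2 ratios were 0.14 and -0.16. The exceptions were Cxcr1, at 39.1 against 47.0 CPM in 4T1P and 47.3 against 38.5 CPM in 4T1M, and the integrin gene Itgam, with log2 ratios of -0.24 and 0.03.

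In the G-CSF and Stat3 list, 8 of the 10 genes tested besides the score gene Csf3r were above 0 in both libraries, with medians of 0.50 and 0.41, against 882 of all 3116 genes above 0. Osm alone was called, where 1.03% of all genes were called higher. Socs3, a feedback inhibitor of Stat3 signaling, was at 491 against 344 CPM in 4T1P and 430 against 319 CPM in 4T1M. The granulocyte transcription factor gene Cebpb was at 9943 against 7156 CPM and 9153 against 6942 CPM, and Stat3 itself at 254 against 224 CPM and 252 against 217 CPM. The kinase gene Pim1 was at 3858 against 2642 CPM and 3993 against 3061 CPM.

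In the interleukin-1 list, 4 of the 6 genes tested besides the score gene Il1r2 were above 0 in both libraries, against 882 of all 3116 genes. The medians of the 6 were 0.49 and 0.26. Il1b alone was called, where 1.03% of all genes were called higher. Nlrp3, the sensor of the inflammasome that leads to interleukin-1 beta cleavage, was at 1553 against 1053 CPM in 4T1P and 1778 against 1410 CPM in 4T1M. Pycard, the adaptor of that complex, was not higher, at 23.9 against 29.0 CPM and 28.4 against 49.3 CPM. The receptor antagonist gene Il1rn was at 968 against 1125 CPM and 1299 against 1259 CPM.

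The histamine list had 1 of 8 genes with enough UMIs to be tested, Hdc itself. Among the lipid droplet genes, Dgat1, which makes triglyceride, was at 86.9 against 49.8 CPM in 4T1P and 75.7 against 43.2 CPM in 4T1M. The lipase gene Pnpla2, whose product G0s2 inhibits, was at 60.8 against 67.1 CPM and 75.7 against 87.8 CPM. Hilpda, another inhibitor of that lipase and a hypoxia-inducible gene, was lower, at 773 against 1927 CPM and 1025 against 1781 CPM.

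Most hypoxia response genes were lower in the score-high neutrophils, and the number called depended on the setting. Of 12 genes tested, 6 were at least 1.5-fold lower in both libraries, against 7.7% of all genes. The ratios of 10 were below 0 in both, with medians of -0.74 and -0.60, as were those of 1271 of all 3116 genes. The number called was 3 under TMM scaling, where 5.58% of all genes were called lower, and 3 under DESeq2 scaling, where 5.04% were. For the top 10% it was 3, against 7.89% of all genes, and with G0s2 alone as the score 1, against 6.10%. The list medians were below those of all genes in these settings too. Ndrg1 was at 71.7 CPM against 200 CPM in 4T1P and 94.6 against 220 CPM in 4T1M, and was called lower in all 15 settings. Ero1l, an oxidase of the endoplasmic reticulum, was at 699 against 1431 CPM and 832 against 1272 CPM. Bnip3, a mitophagy receptor, was at 395 against 671 CPM and 419 against 658 CPM, and 9 of the 15 settings called it. Egln1, P4ha1 and Hilpda completed the 6, whereas Hif1a, which encodes the oxygen-regulated transcription factor subunit, was at 971 against 790 CPM and 938 against 852 CPM.

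Of 17 glycolysis genes tested, 2 were called lower, Gpi1 and Tpi1, a share not far from the 7.7% of all genes. The ratios of 15 of the 17 were below 0 in both libraries, with medians of -0.44 and -0.25. Gpi1, the isomerase of the second step, was at 278 against 446 CPM in 4T1P and 270 against 455 CPM in 4T1M. Ldha, which makes lactate, was at 788 against 1498 CPM and 943 against 1361 CPM. Slc2a1, the glucose transporter, was at 467 against 513 CPM and 443 against 411 CPM, so its direction differed between the libraries. No glycolysis gene was called lower under DESeq2 scaling, where the medians were -0.33 and -0.11, or with G0s2 alone as the score, where they were -0.35 and -0.14.

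Of 15 genes of tumor-adapted neutrophils, Hilpda was the only one called lower, no more than the 7.7% of all genes. The ratios of 12 of the 15 were below 0 in both libraries, as were those of 1271 of all 3116 genes, and the medians were -0.51 and -0.39. Cd274, which encodes PD-L1, the ligand of the receptor that anti-PD1 blocks, was at 432 against 672 CPM in 4T1P and 580 against 813 CPM in 4T1M. Vegfa, the angiogenic growth factor, was at 122 against 185 CPM and 131 against 195 CPM.

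Genes of blood-like neutrophils did not follow one direction. Of 13 tested, 3 were called lower, against 7.7% of all genes, and 8 were below 0 and 5 above 0 in both libraries. Retnlg, a resistin-like gene of mature neutrophils, was at 5813 against 9477 CPM in 4T1P and 3137 against 7199 CPM in 4T1M. Prok2 was at 413 against 907 CPM and 430 against 702 CPM, and Ifitm6 was the third called. Ifitm1 was at 7756 against 4986 CPM and 5943 against 4756 CPM, higher in both. Of 9 genes of gelatinase granules and late maturation, the 3 genes Mmp8, Retnlg and Ly6g were called lower, while Mmp9, at 439 against 340 CPM and 345 against 315 CPM, was not. Ly6g encodes part of what GR1 antibodies recognize, and it was at 97.7 against 193 CPM in 4T1P and 75.7 against 149 CPM in 4T1M.

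Secondary granule genes were scarce by the gate itself, with 2 of 7 called lower, against 7.7% of all genes, and medians of -1.20 and -0.44. Ngp, at 52.1 against 503 CPM in 4T1P and 58.3 against 203 CPM in 4T1M, came from 10 and 8 score-high neutrophils, and 1 cell held 70.3% of its UMIs in those of 4T1M. Genes of the NF-kB, immediate-early and transcription factor lists showed no calls. Their medians were 0.19 and 0.24, 0.32 and 0.21, and 0.43 and 0.25. Cxcl2, the most abundant chemokine, was at 45837 against 32343 CPM and 51510 against 40506 CPM, and Junb, an AP-1 subunit gene, at 2892 against 1919 CPM and 3005 against 2130 CPM.

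Ribosomal protein and MHC class II genes were lower in summed UMIs, and the number called depended on how cells were weighted and which were kept. Of 75 ribosomal protein genes, 38 were called lower and 74 were below 0 in both libraries, with medians of -0.83 and -0.65, against 7.7% called lower and 1271 of 3116 below 0 among all genes. With every cell given equal weight 5 were called, with medians of -0.55 and -0.38, where 7.22% of all genes were called lower. Cells were also thinned to 1000 UMIs, with barcodes of macrophage signal or the highest doublet scores removed. In that joint setting 1 of 61 was called, against 4.02% of all genes. The median share of ribosomal protein UMIs per cell was 2.20% against 2.51% in 4T1P and 1.996% against 2.33% in 4T1M. All 4 MHC class II genes tested were called lower, among them Cd74 at 106 against 319 CPM and 192 against 341 CPM, and 1 of the 4 was called with equal weights. Macrophages also express these genes. With cells over 0.1% C1q and Apoe UMIs removed, all 4 were called, with medians of -1.24 and -0.97. Without the highest doublet scores 2 of the 4 were called, as at a mitochondrial limit of 5%. With cells thinned to 1000 UMIs 1 of 2 was called. In the joint setting the 1 gene tested was not called, with log2 ratios of -1.97 in 4T1P and 0.14 in 4T1M. Whether macrophage signal accounts for the lower values was not tested.

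Among the 15 lowest genes were the chaperone genes Hsp90b1 and Hsp90ab1. Hsp90b1 was at 43.4 against 144 CPM in 4T1P and 45.7 against 142 CPM in 4T1M, and Hsp90ab1 at 104 against 290 CPM and 99.3 against 245 CPM. Each was called lower in 13 of the 15 settings. Over the settings, the log2 ratio in 4T1P ranged from -1.99 to 0.21 for Hsp90b1 and from -1.68 to -0.10 for Hsp90ab1. Cybb, the catalytic subunit of the NADPH oxidase that makes superoxide, was at 69.5 against 156 CPM and 101 against 264 CPM, the only 1 of 7 oxidase genes called. Of the 15 settings, 11 called Cybb lower. Others among the 15 lowest were Calr, Fn1, Capg, Tbc1d20, H2-Aa, Rpl36al, Rpl5, Rpl32 and Rpl10a. In the survival list 1 of 14 genes, the proapoptotic Bax, was called lower, a share near the 7.7% of all genes, and none of 15 Fc receptor and C-type lectin genes was called in either direction.

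**Figure D3:**
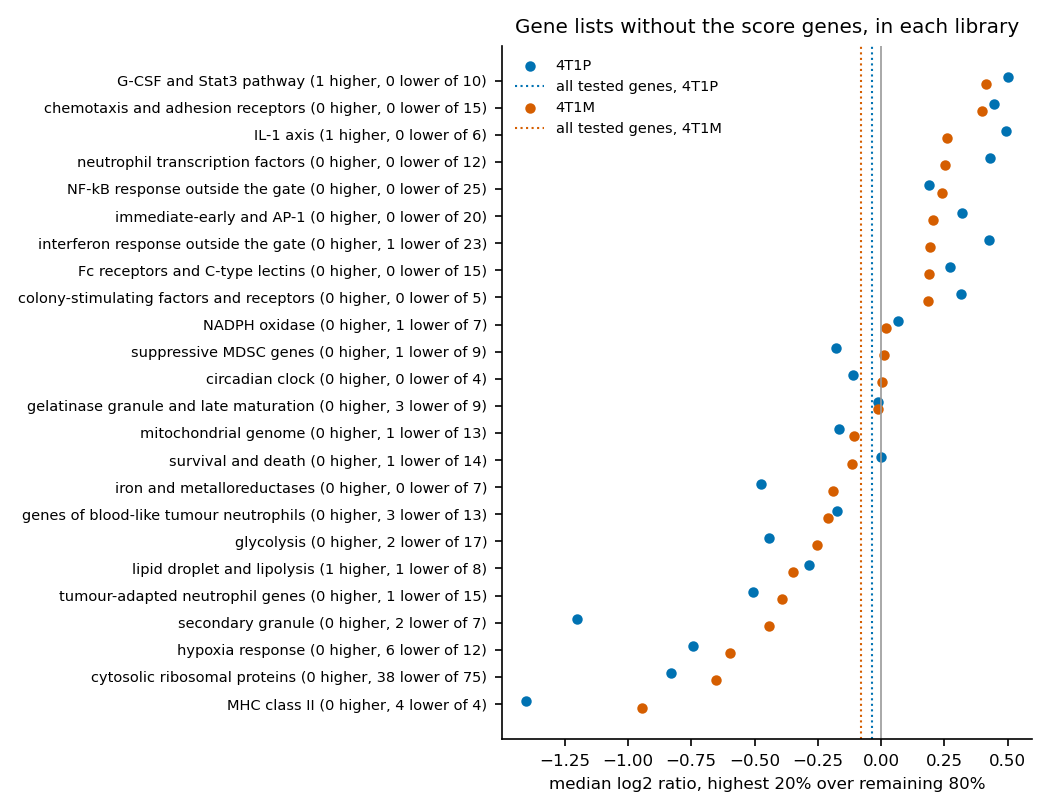
Median log2 ratio of the score-high neutrophils to the remaining 80% (x axis) of each gene list with at least 4 genes tested (y axis), in each library, with the numbers of genes called higher and lower in brackets, score genes left out. Dotted lines are the medians of all tested genes, -0.04 and -0.08. The interleukin-1, chemotaxis and G-CSF lists lie above the median of all genes in both libraries, and the hypoxia, ribosomal protein, secondary granule and MHC class II lists lie below it.

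To see whether these differences began at the cut, the 1727 cells were divided by score into 10 bins of equal size, the upper 2 of which are the score-high neutrophils. Il1b climbed along the whole range, from 3471 CPM in the lowest bin to 7243 CPM in the fifth and 17795 CPM in the highest in 4T1P, and from 5172 to 10747 and 17786 CPM in 4T1M. The 15 chemotaxis and adhesion receptors outside the score summed to 4843 CPM in the lowest bin and 10409 CPM in the highest in 4T1P, and to 6577 and 12620.5 CPM in 4T1M. Lrg1 differed most at the bottom, with 108 CPM in the lowest bin, 736 CPM in the fifth and 943 CPM in the highest in 4T1P, and 47.4, 800 and 1071 CPM in 4T1M.

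The hypoxia and glycolysis genes were highest in the lowest bins and changed less over the upper ones. The 13 hypoxia genes summed to 9747, 10980 and 8707 CPM in the first 3 bins of 4T1P and to 4912, 3725 and 4439 CPM in the last 3. In 4T1M they summed to 10843, 8796 and 7415 CPM and to 4002, 4705 and 4515 CPM. The glycolysis genes went from 11109 CPM in the lowest bin to 6133 CPM in the highest in 4T1P and from 12633 to 5886 CPM in 4T1M. Ribosomal protein genes stood apart in the lowest bin, at 87080 CPM in 4T1P and 48336.5 CPM in 4T1M, against 21421 and 21902 CPM in the highest. The fourth bin already stood at 24251 and 27490 CPM, so for these genes most of the decline lay among the cells with the lowest scores.

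**Figure D4:**
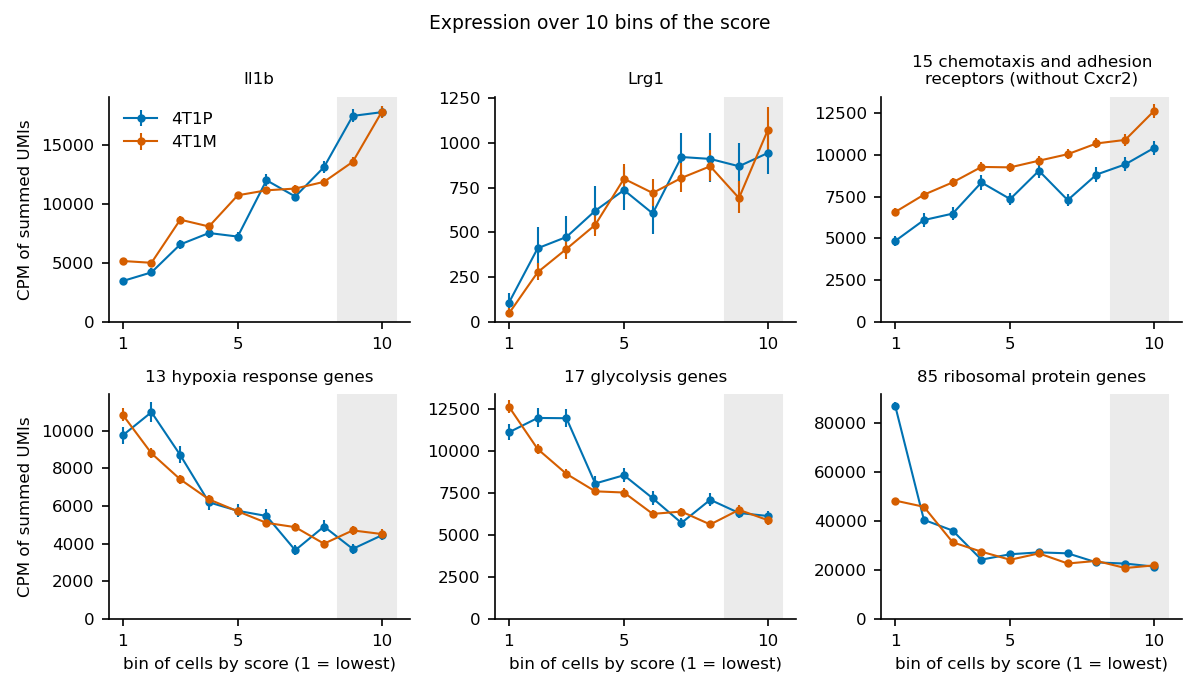
CPM of summed UMIs (y axis) in each of 10 bins of the gated neutrophils by score, from 1, the lowest, to 10 (x axis), for Il1b, Lrg1 and 4 gene groups in 4T1P and 4T1M, with exact Poisson 95% intervals. The score-high neutrophils are shaded. Il1b climbs through to the highest bin, whereas hypoxia, glycolysis and ribosomal protein genes drop mainly over the first bins.

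Finally, the score-high neutrophils of both tumor types were compared with each other. The same cut on the 6 score genes was applied to both libraries, so their levels are given as a description, with log2 ratios of 4T1M to 4T1P from -0.35 (-0.67 to -0.02) for Steap4 to 0.25 (0.03 to 0.48) for Cxcr2. Il1b was at -0.19 and Osm at 0.05. At least 50 UMIs in the score-high neutrophils of both libraries together were found for 2123 genes. Of these, 173 were at least 1.5-fold higher in 4T1M, or 8.15%, and 86 were at least 1.5-fold lower, or 4.05%. The counting interval was clear of 0 for 131 of the 173 and 59 of the 86. In the remaining 80%, 46 of the 173 (26.6%) and 4 of the 86 (4.65%) were past 1.5-fold in the same direction. Of all 2123 genes, 105 (4.95%) were past it on the higher side there and 20 (0.942%) on the lower, so the shared genes were 43.8% and 20% of those.

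Interferon-stimulated genes outside the gate were among the groups higher in 4T1M. Of 21 tested, 10 were higher in 4T1M and none lower, against 8.15% and 4.05% of all genes. The median log2 ratio was 0.55 in the score-high neutrophils and 0.68 in the remaining 80%, against 0.01 and 0.03 for all genes tested. Slfn5, of the interferon-inducible Schlafen family, was at 71.7 CPM in 4T1P and 192 CPM in 4T1M, and Ly6e at 56.5 and 137 CPM. Rsad2, which encodes the antiviral enzyme viperin and was limited by the gate, was at 141 and 367 CPM. The interferon difference was thus present in the score-high neutrophils, and whether its size differed from that in the remaining 80% was not tested.

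Of the 4 MHC class II genes tested, 3 were higher in 4T1M, against 8.15% of all genes, with a median log2 ratio of 0.66 in the score-high neutrophils and 0.19 in the remaining 80%. Cd74 was at 106 CPM in 4T1P and 192 CPM in 4T1M, and the macrophage markers summed to 552 and 608 CPM in these cells. Of 25 NF-kB response genes, 9 were higher in 4T1M and none lower, against 8.15% and 4.05% of all genes. Their median was 0.43 in the score-high neutrophils and 0.51 in the others, against 0.01 and 0.03 for all genes tested. Tnfaip3, a feedback inhibitor of NF-kB, was at 704 CPM in 4T1P and 1319 CPM in 4T1M, and Bcl2a1b, a survival factor gene, at 195 and 460 CPM. Of 9 genes of gelatinase granules and late maturation, 1 was lower in 4T1M and none higher, against 4.05% and 8.15% of all genes. Their median was -0.21 in the score-high neutrophils and -0.10 in the others. Retnlg, from that list, was at 5813 CPM in 4T1P and 3137 CPM in 4T1M. No receptor of the chemotaxis list was past 1.5-fold among 15 tested.

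The largest single differences came from few cells. Cxcl10, an interferon-induced chemokine, was at 23.9 CPM in 4T1P and 148 CPM in 4T1M, a log2 ratio of 2.63 (1.73 to 3.68), but its UMIs lay in 10 and 24 score-high neutrophils. The cell with most Cxcl10 UMIs held 18.2% of them in 4T1P and 22.3% in 4T1M. Saa3, an acute-phase protein gene, was at 1546 CPM in 4T1P and 626 CPM in 4T1M, a log2 ratio of -1.30 (-1.49 to -1.13), with UMIs in 29 and 25 cells. The cell with most Saa3 UMIs held 15.7% of them in 4T1P and 21.2% in 4T1M. In the remaining 80% the ratios of Cxcl10 and Saa3 were -0.11 and 0.13, as Saa3 was at 579 and 636 CPM there. The other genes named by size were Rgs1, Cs, Gadd45g, Smad7 and Cdk5r1 on the 4T1M side and Scp2, Mt1, Syap1, Hist1h1c, AY036118, Bclaf1 and Msra on the 4T1P side. For Rgs1, 1 cell held 38.0% of its UMIs in the score-high neutrophils of 4T1M.

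**Figure D5:**
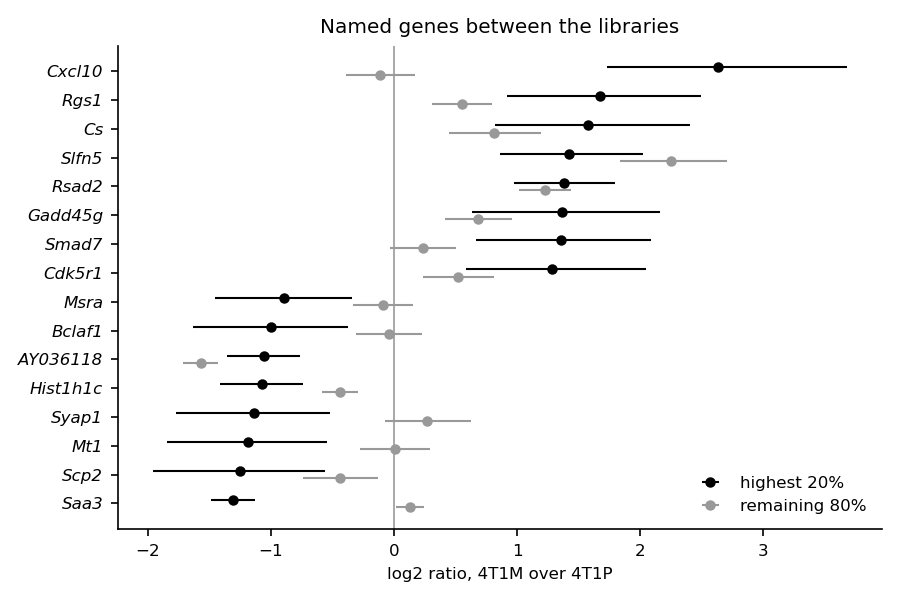
Log2 ratio of 4T1M to 4T1P (x axis) for the 8 genes highest in 4T1M and the 8 highest in 4T1P among the score-high neutrophils (y axis), in those cells (black) and in the remaining 80% (gray), with exact 95% intervals for counting error. Of the 16 genes, 9 lie on the same side in the remaining 80% with an interval clear of 0, among them Slfn5, Rsad2 and AY036118. Another 3 lie on the same side with an interval that holds 0. The other 4 lie on the opposite side there, among them Cxcl10 at -0.11 (-0.39 to 0.17), Saa3 at 0.13 (0.02 to 0.25) and Syap1 at 0.27 (-0.07 to 0.62).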

How the data were processed

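Single-cell libraries of GR1+ cells, 1 per condition, were used. The authors deposited whole-number UMI counts per gene and barcode, made with Cell Ranger 4.0.0 per the matrix header, on mm10. The study's methods name another Cell Ranger version. Cells were filtered and gated as stated in the report with Python 3.11.15, numpy 2.4.6, pandas 2.3.3 and scipy 1.17.1. UMIs were summed per library and set of cells and scaled to CPM, the count divided by the summed UMIs of those cells and set to the same total. The gate, in percent of the UMIs of a cell, was at least 1.5% S100a8 and S100a9, under 0.5% C1qa, C1qb, C1qc and Apoe, under 1% Camp, Ngp and Ltf, under 0.5% Il1a, Tnf and Il23a, and under 0.6% Isg15, Rsad2, Ifit1, Ifit3, Cmpk2 and Usp18. Intervals were exact Poisson (CPM), conditional binomial (ratios) or Clopper-Pearson (shares). Calls required 1.5-fold, with 50 UMIs per library, and 0.5 UMIs were added where a sum was 0. Named genes were the 10 markers, list members, the 15 highest and 15 lowest by the weaker library at 100 CPM or more, and the 8 highest and lowest between libraries. The members and lists were chosen with earlier results of these data known. No doublets were removed; Scrublet (scanpy 1.11.5) called 1 barcode of 7951 and so had not worked, and its scores served only as an alternative. TMM (edgeR 4.0.16) and DESeq2 1.42.0 size factors (R 4.3.3) were used for scaling only. The steps were tested on simulated data. Shares of cells with a UMI were compared at 1000 UMIs per cell. Some named genes are not reported here.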

Additional observations from a re-analysis of the deposited data

Results flagged for a closer look

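A few genes pointed in opposite directions in the libraries when the score-high neutrophils were compared with the remaining 80%, with both counting intervals clear of 0. Fabp5, a fatty acid binding protein gene, had a log2 ratio of -1.23 in 4T1P and 0.36 in 4T1M. Cxcl10 had -2.17 and 0.58. The chemokine gene Cxcl1 had 0.66 and -0.30, with UMIs in 23 score-high neutrophils of 4T1P and 43 of 4T1M. Ccl4, also a chemokine gene, had 0.72 and -0.60, and Tgfbi, an extracellular matrix protein gene, had 0.59 and -0.32. The differences between the libraries were not tested, since each condition had 1 library, and these genes were picked out for their opposite signs.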

How the results depend on the processing

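The share of score-high neutrophils was higher in 4T1P than in 4T1M in the alternatives that pooled the libraries. It was 14.3% and 8.18% for the top 10%, 36.2% and 27.4% for the top 30%, and 22.2% in 4T1P against 19.0% without G0s2 in the score; ranking within each library sets it to 19.9% and 20% by construction. Genes higher in the score-high neutrophils numbered 32, and 21 with cells thinned to 1000 UMIs (fewer genes tested), 79 under TMM scaling, 101 under DESeq2 scaling, 567 with no filter on low counts, 191 without G0s2 and 8 with G0s2 alone. Genes lower numbered 240, and 91 after thinning, 150 at a mitochondrial limit of 5%, 157 without the highest doublet scores, 151 at a C1q and Apoe limit of 0.1%, 157 under DESeq2 scaling, 1729 with no filter, and 44 with thinning, that limit and doublet removal together. Between the libraries, the genes higher in 4T1M numbered 173, and 109 for the top 10%, 75 after thinning, 3207 with no filter and 64 with the 3 steps together; genes lower numbered 86, and 40, 2495 and 47 in the last 3 of these. A count does not say which genes: 14 of the 32 were shared with the top 10%, 21 with the score without G0s2 and 9 with thinned cells. The cause of these changes was not tested beyond the construction named. The scores without G0s2 or with G0s2 alone, the equal weighting of cells and the joint setting were chosen after seeing the data. No paired analysis was possible because each condition had 1 library.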

Other observations

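The neutrophils excluded by the gates also held cells at or above the cut. Of the interferon-high neutrophils, 9.26% in 4T1P (5 of 54, exact binomial 95% interval 3.08 to 20.3%) and 26.0% in 4T1M (53 of 204, 20.1 to 32.6%) had such a score. Hdc was at 1603 and 1945 CPM in them and G0s2 at 5166 and 6374 CPM, between the levels of the score-high neutrophils and the remaining 80%. Il1b was also high in the excluded classes, at 13808 and 14558 CPM in the interferon-high neutrophils and 14679 and 13083 CPM in those high in Il1a, Tnf and Il23a. Osm was at 401 and 345 CPM and at 561 and 395 CPM in these classes. Csf1 was at 823 and 936 CPM and at 643 and 779 CPM, above its 541 and 717 CPM in the score-high neutrophils. Of the neutrophils high in Il1a, Tnf and Il23a, 15.4% (4 of 26) and 15.3% (40 of 262) had such a score, and Lrg1 was low in them, at 377 and 237 CPM. Of the granule-rich neutrophils, 0 of 18 and 0 of 46 did, and Lrg1 was highest there, at 1459 and 1202 CPM, while Steap4 was at 9.497 and 28.6 CPM and Igfbp6 at 6.33 and 28.6 CPM.

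When G0s2 was left out of the score, Csf1 and Mirt1 were past 1.5-fold in both libraries, with log2 ratios of 1.05 and 0.80 and of 0.96 and 0.65, whereas with G0s2 in the score they were at 0.24 and 0.36 and at 0.36 and 0.37. Fgl2 was at 1.73 and 1.66 in that ranking, against 0.90 and 0.85. Of 17 glycolysis genes 9, and of 12 hypoxia genes 8, were lower by 1.5-fold in both libraries without G0s2, against 0 and 1 with G0s2 alone as the score. Of all 3116 genes, 7.77% were called lower without G0s2 and 6.10% with G0s2 alone.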
